A study of Mus musculus with 2 samples.

Results

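Photoreceptor precursors are the newborn neurons of the embryonic retina that will become rods or cones. They were taken from 2 single-cell RNA sequencing libraries of mouse eye cups at E17.5. One library was made from Myrf humWT/humWT embryos and one from Myrf humdG/humdG embryos. Both alleles carry a human copy of the last exon of Myrf in place of the mouse exon, so the control is itself a humanised line. In the humdG allele this exon carries a shift of the reading frame near the C-terminus, which models a pathogenic splice site variant of patients. The humWT allele was made in fertilized C57BL/6J eggs and the humdG allele on top of it. Homozygous humdG embryos die before birth. The labels describe 3 pooled eye cups per genotype with the cornea, lens and optic nerve taken away, whereas the study's methods differ on the number of eyes and on the cornea. The protocol text also names floxed and Rx>cre embryos that the genotype fields do not. There was 1 library for each genotype, so a difference between the genotypes cannot be told apart from a difference between the pools, and no test between genotypes was possible.

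A cell was kept when it had over 500 genes and under 15% mitochondrial unique molecular identifiers (UMIs, which count RNA molecules). The members were chosen by measured RNA: at least 3 of Crx, Gngt2, Pdc, Gnb3 and Prdm1 detected, these 5 genes together at 0.05% or more of the cell's UMIs, and fewer than 3 of the retinal pigment epithelium (RPE) genes Rgr, Rlbp1, Slc16a8 and Rdh5 detected. The rule found 610 of 17017 kept cells in the humWT library and 998 of 19129 in the humdG library, or 1608 of 36146 in all. The deposited libraries held 129135207 and 114319529 UMIs. The members held 6311191 and 9114981 of them, with medians of 6584 and 7056.5 UMIs per cell. The 2 libraries shared 102 barcodes, none of them among the members.

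In the developing retina, a progenitor that leaves the cell cycle passes through a neurogenic state marked by Atoh7 and Neurog2. The homeobox factor Otx2 then turns on Crx and Prdm1, and Prdm1 holds back the bipolar cell fate. Cones are the earlier of the photoreceptors and carry Thrb and Rxrg, nuclear receptors that pattern their opsins, while rods depend on Nrl and on its target Nr2e3, which represses cone genes.

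The label was checked with Otx2, which the rule did not use. Otx2 had a UMI in 83.1% of the humWT members (95% interval 79.9 to 86.0) and in 82.2% of the humdG members (79.6 to 84.5). Its summed level was 617 CPM (counts per 1000000 UMIs of the cells summed) in humWT and 642 in humdG. In globin-rich cells, where at least 20% of UMIs came from 4 adult globin genes and Otx2 UMIs should stem from free RNA, it was 41.8 and 46.4 CPM. In those cells 15.6% (12.4 to 19.3) and 17.7% (13.9 to 22.1) held an Otx2 UMI, at median depths of 4618 and 3776 UMIs. Intervals throughout are exact (Clopper-Pearson for shares, Poisson for levels, conditional binomial for ratios) and cover counting error only.

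Near the edges of the rule, Otx2 followed the number of markers. It was detected in 71.3% of the 251 humWT members with 3 markers, in 86.3% of the 175 with 4 and in 96.2% of the 184 with all 5. The humdG members gave 62.4% of 383, 90.4% of 302 and 98.4% of 313. Cells with 2 markers at 0.05% or more of their UMIs, just outside, held Otx2 in 38.2% of 513 humWT cells and 30.1% of 1381 humdG cells. Depth moved with marker number, from a median of 4470 UMIs at 3 markers to 12412 at 5 in humWT, and from 3414 to 8631 in humdG. Members whose 5 markers made 0.05 to 0.06% of UMIs numbered 19 and 41, and cells at 0.04 to 0.05%, just outside, numbered 25 and 42, with Otx2 in 73.7% and 78.0% of the former and in 84.0% and 73.8% of the latter.

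The genes that chose the members are given as a description, and of the 5 Pdc differed most between the libraries. Crx was at 206 CPM (195 to 218) in humWT and 223 (213 to 233) in humdG. Gngt2, the gamma subunit of cone transducin, was at 1580 and 1546 CPM. Its partner Gnb3, the cone transducin beta subunit, was at 366 and 375 CPM, and Prdm1 at 450 and 493. Pdc, phosducin, which binds transducin beta and gamma subunits, was at 334 and 264 CPM.

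Among the genes that the rule did not use, 20 were named by the ratio of the members over all other kept cells, taking the lower of the 2 libraries. Among them were Fabp7, Cngb3, Gm32442, Samsn1, Neurod1, Dmd, Chgb, Gm4792, Snap25, Egflam, Neurod4, Cntn1, Ntng2, Cadm2, Rbp3, Zfp385b and Tulp1. The fatty acid binding protein gene Fabp7 was 27.1-fold higher in members in humWT and 18.1-fold in humdG, with 10 CPM added to each level. Cngb3, a subunit of the cone cyclic nucleotide-gated channel, was 20.2-fold and 14.7-fold higher. Neurod1, a bHLH factor of photoreceptor differentiation, was 15.4-fold and 8.39-fold higher. Rbp3, the interphotoreceptor retinoid-binding protein, was 11.8-fold and 6.85-fold higher, and Tulp1, a photoreceptor trafficking protein, 9.94-fold and 6.82-fold. Dmd and Egflam, which work at the photoreceptor ribbon synapse, were also on the list. Between the genotypes, Fabp7 was at 1464 CPM in humWT and 1431 in humdG, Neurod1 at 722 and 757, and Neurod4 at 347 and 352.

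**Figure D1:**
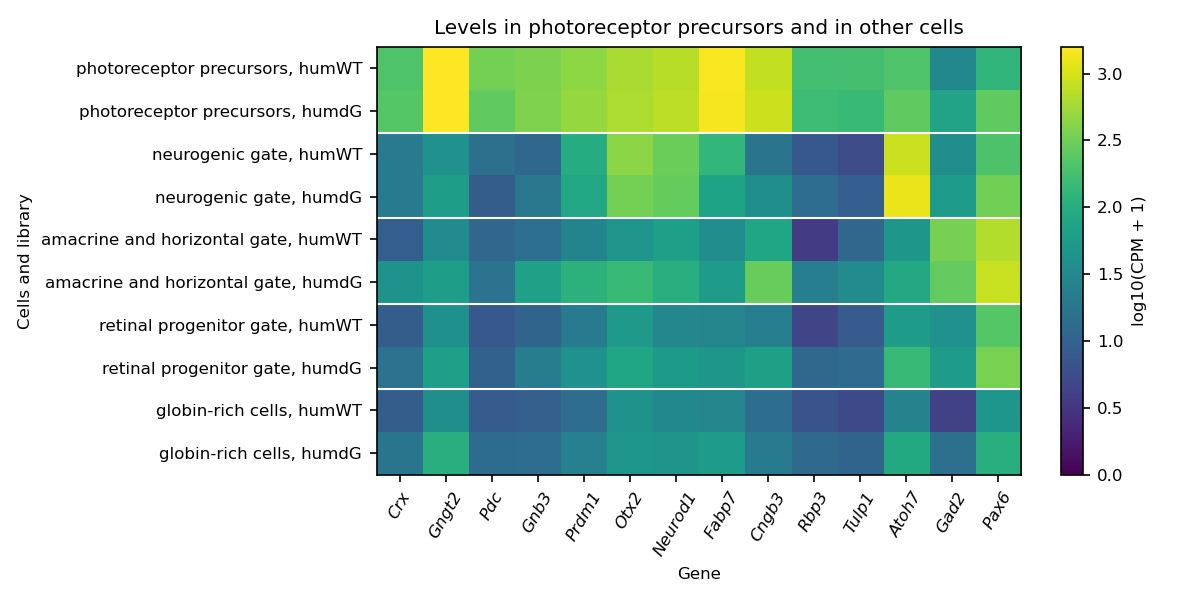
Levels of 14 genes (columns), as log10 of CPM plus 1, summed over the cells of each set in each library (rows). The neurogenic, amacrine and horizontal, and retinal progenitor cells were each taken by their own marker genes and are not members. The 5 rule genes chose the members, and Neurod1, Fabp7, Cngb3, Rbp3 and Tulp1 were brighter in the members than in the other sets in both libraries.

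Cells of the neurogenic gate (at least 3 of 5 neurogenic genes, among them Atoh7, Neurog2, Dll1 and Dll3) numbered 494 in humWT and 1326 in humdG after 72 and 178 members that met both rules were set aside. Otx2 was at 432 and 338 CPM in them and Neurod1 at 298 and 273, below the members in both libraries. Atoh7, at 205 and 263 CPM in the members, was at 884 and 1279 in the neurogenic cells, which it helped to choose. Cngb3 and Rbp3 were at 15.9 and 6.61 CPM in the humWT neurogenic cells, against 814 and 177 in the members.

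The members made up 3.58% of the kept cells in humWT (3.31 to 3.87) and 5.22% in humdG (4.91 to 5.54). The humdG library was shallower outside the members, with a median of 2444 UMIs against 3709, while the members' medians, given above, were closer. Between the 5th and 95th percentiles the members ran from 2474 to 32011 UMIs in humWT and from 1683 to 22051 in humdG. When the rule was applied to cells brought down to 1000 UMIs, a depth that 51 and 371 cells did not reach, the shares were 0.831% (0.700 to 0.979) and 1.40% (1.24 to 1.58). Without the members that also met the gate of another cell class (148 and 405 cells), the shares were 2.71% and 3.10%. With 1 pool per genotype, neither share says how such a value varies between embryos. In the members, 11290 genes had at least 100 UMIs over both libraries. Of these, 2.6% were at least 2-fold higher in humdG and 0.859% at least 2-fold lower (294 and 97 genes). This balance turned in some settings. It was 178 and 316 genes with the mean of each cell's CPM, and 86 and 265 without members of another gate. Over the 14841 genes with at least 20 UMIs the median log2 ratio of humdG over humWT was 0.12, with 64.5% above 0, 4.59% at least 2-fold higher and 2.08% at least 2-fold lower. Scaling by that shift (0.12 on the log2 scale) lowers each ratio below by the same amount.

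Genes of the rod program were lower in the humdG members. All 9 measured genes of the 17-gene rod list were lower, with a list median of -0.96 (log2), whereas 64.5% of all measured genes were higher. Of the 7 with at least 100 UMIs, 3 (Nr2e3, Sag and Samd7) were at least 2-fold lower, where 0.859% of all genes were. Nr2e3 was at 165 CPM in humWT (1040 UMIs, in 27.2% of members) and 37.6 CPM in humdG (343 UMIs, in 11.2%), a log2 ratio of -2.13 (-2.31 to -1.95). Globin-rich cells held an Nr2e3 UMI in 2.20% and 0.563% of cells, so both values stood above that background. Nr2e3 lies on the minus strand at chr9:59942771-59960659 (GRCm38), where the gene model Gm15507 overlaps it on the same strand. Nrl, the factor that commits a precursor to the rod fate, was at 87.5 CPM (552 UMIs) against 45.6 (416 UMIs), a log2 ratio of -0.94 (-1.13 to -0.75). The intervals of the 2 libraries did not overlap for either gene. Of all genes with at least 100 UMIs, 7.97% had such intervals with humdG lower and 20.4% with humdG higher.

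Further genes of the mature rod were lower over all members, though not all of them when cells were split by Xist and Y-linked UMIs. Sag, rod arrestin, which ends the light response, was at 36.1 and 10.9 CPM (log2 ratio -1.73, -2.09 to -1.39). Gngt1, the gamma subunit of rod transducin, was at 97.8 and 50.1 CPM (-0.96), and Pde6g, an inhibitory subunit of the rod phosphodiesterase, at 74.2 and 42.2 (-0.81). These 2 ratios were 1.40 and 0.78 in Xist cells (those with Xist but no Y-linked UMIs), on 5 and 7 humWT UMIs, and -0.57 and -0.55 in Y-linked cells (the opposite). Pde6b, a catalytic subunit of that enzyme, had 25 and 8 UMIs. Samd7 and Samd11, retina-restricted proteins of a Polycomb complex that silences non-rod genes in rods, were at 22.3 and 8.34 CPM (-1.42) and at 42.3 and 12.6 CPM (-1.75). Samd7 was no longer past 2-fold in either set (-0.82 in Y-linked cells and -0.84, -2.36 to 1.14, in Xist cells). Rcvrn, recoverin, a calcium sensor of rods and cones, was at 19.0 and 6.58 CPM (-1.53), on 120 and 60 UMIs. In the same split, its ratio was -0.63 (-1.32 to 0.01) in Y-linked cells and -0.0064 (-2.76 to 5.41) in Xist cells, the latter on 1 and 12 UMIs. Gnb1, a transducin beta subunit that many other cells carry too, was at 183 and 170 CPM (-0.11, -0.22 to 0.00). In the wider list of fate regulators, 17 of 25 measured genes were higher, with a median of 0.11, near the 64.5% and 0.12 of all genes. Of these 25, 3 (Nr2e3, Samd7 and Samd11) were at least 2-fold lower, where 0.859% of all genes were. None was at least 2-fold higher, where 2.6% of all genes were. Rorb, a nuclear receptor upstream of Nrl, was at 1901 and 2724 CPM (0.52), and Onecut1, a factor of early cone and horizontal cell genesis, at 41.4 and 79.0 (0.93). Late genes of the rod light response were barely detected at this age, and Gnat1, Pde6a, Cnga1, Cngb1, Guca1b and Slc24a1 had 8 UMIs or fewer in each library.

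**Figure D2:**
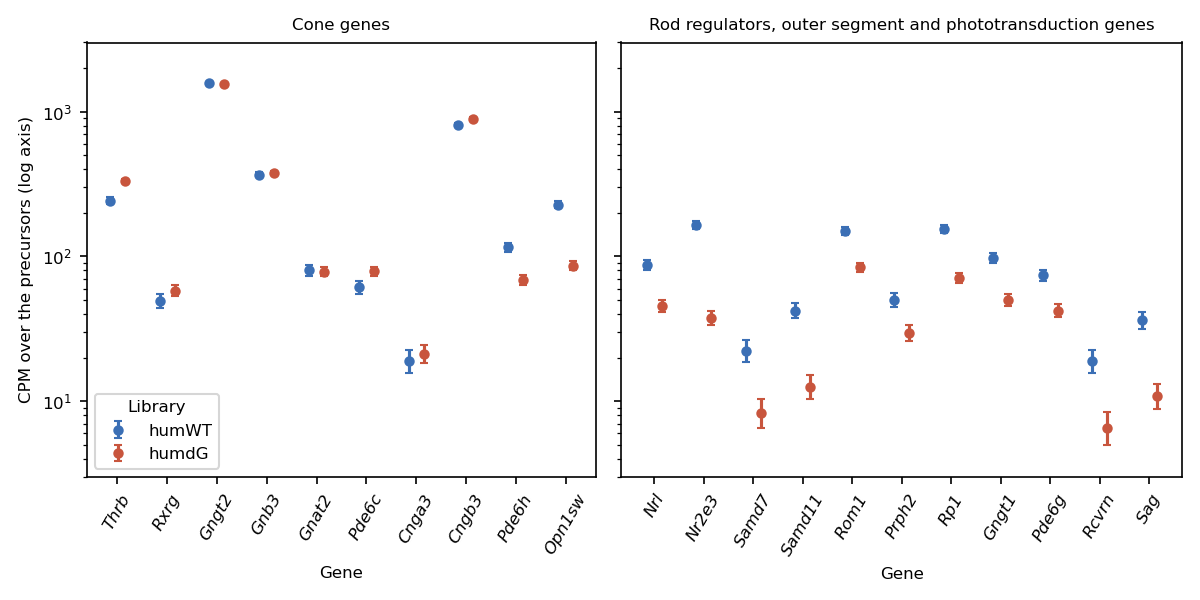
Level of cone genes (left) and of rod regulators, outer segment and phototransduction genes (right) in the members of each library, in CPM on a log axis. Points are sums over the members of 1 library and bars are exact 95% Poisson intervals, which cover counting error only. All 11 genes shown in the right panel are lower in humdG. Over the whole lists, 12 of 22 measured outer segment, cilium and adhesion genes and 4 of 19 phototransduction genes were higher. Among the 10 cone genes shown, the intervals of Opn1sw and Pde6h lie lower in humdG and those of Thrb, Pde6c and Cngb3 higher. Such intervals were found for 7.97% and 20.4% of all genes.

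Cone genes lay on both sides of 0. Of the 17 cone genes, 2 (Gngt2 and Gnb3) chose the members. Of the other 15, 12 were measured, 6 higher and 6 lower in humdG, with a median log2 ratio of 0.017 (0.00 with Gngt2 and Gnb3). Thrb, which marks cones and their precursors, was at 243 CPM in humWT and 331 in humdG (log2 ratio 0.44, 0.36 to 0.53), and Rxrg at 49.1 and 58.0 (0.24, 0.04 to 0.45). Pde6c, the catalytic subunit of the cone phosphodiesterase, was at 61.2 and 79.1 CPM (0.37). Gnat2, cone transducin alpha, was at 80.3 and 78.4 CPM (-0.03), and the channel subunits Cnga3 and Cngb3 were at 18.9 and 21.2 and at 814 and 893 CPM. Opn1sw, the short-wavelength cone opsin, differed from these genes, at 228 CPM (1441 UMIs) in humWT and 86.5 (788 UMIs) in humdG, a log2 ratio of -1.40 (-1.53 to -1.27). It was 1 of 11 cone genes with at least 100 UMIs, rule genes left out, to be at least 2-fold lower, where 0.859% of all genes were. Pde6h, the inhibitory subunit of the cone phosphodiesterase, was at 116 and 68.8 CPM (-0.75). Neither set split by Xist and Y-linked UMIs repeated this (-0.015, -0.25 to 0.22, in Y-linked cells and 1.26, 0.19 to 2.59, in Xist cells). Opn1mw had 0 and 1 UMI and Arr3, cone arrestin, 7 in each library, so the medium-wavelength pigment was not detectable in humWT at this depth, where 3 UMIs would be 0.475 CPM.

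Structural genes of the photoreceptor went both ways. Of 22 measured genes of the outer segment, cilium and adhesion list, 12 were higher and 10 lower, with a median of 0.01. Rom1 and Prph2, the tetraspanins of the disc rim, were at 150 and 84.1 CPM (-0.83) and at 50.1 and 29.6 CPM (-0.76). In Y-linked cells these 2 ratios were smaller, at -0.38 (-0.59 to -0.18) and -0.31 (-0.68 to 0.05). In Xist cells they were -0.17 (-0.75 to 0.47) and 0.04 (-1.06 to 1.40). Rp1, a microtubule protein of the photoreceptor axoneme, was at 154 and 71.3 CPM (-1.11), 1 of 21 genes of this list with at least 100 UMIs to be at least 2-fold lower, against 0.859% of all genes. Rp1 was not past 2-fold in Y-linked cells (-0.85, -1.10 to -0.60) but was in Xist cells (-1.42, -1.94 to -0.87). Among the other genes of the list, Rpgrip1, a protein of the connecting cilium, was at 421 and 408 CPM, Cep290 at 112 and 120, and Ahi1 at 122 and 126. Over the phototransduction list, 4 of 19 measured genes were higher and 15 lower, with a median of -0.42 (0.69 in Xist cells), and 3 of the 14 with at least 100 UMIs, Opn1sw, Rcvrn and Sag, were at least 2-fold lower, where 0.859% of all genes were. The synapse list had a median of 0.16 with none of its 20 measured genes past 2-fold. Among these, Snap25 of the vesicle fusion machinery was at 692 and 753 CPM and the ribbon protein gene Ctbp2 at 76.1 and 88.8.

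**Figure D3:**
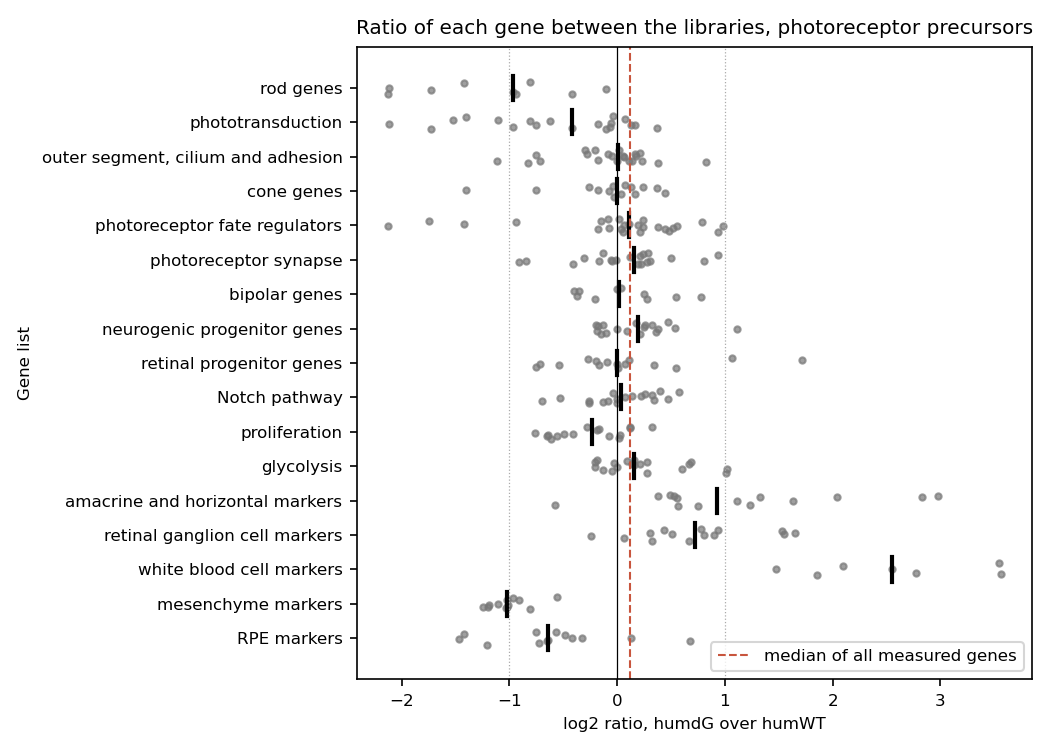
Log2 ratio of humdG over humWT in the members for each gene with at least 20 UMIs (grey points), by gene list, with the list median as a black bar. Dotted lines mark 2-fold and the dashed line is the median of all measured genes, 0.12. The rod list lies to the left of it, and the amacrine and horizontal and white blood cell lists to the right.

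The same genes were summed over every kept cell of each library, a measure that does not use the rule but includes the members. The members held 62.8% of the Nr2e3 UMIs of the humWT library and 57.9% of those of the humdG library. For Sag these shares were 32.5% and 24.4%. Genes of the rule were higher there in humdG: Crx was at 18.9 CPM in humWT and 33.3 in humdG, and Gngt2 at 124 and 206. Thrb was at 36.9 and 72.6 CPM. In contrast, Nr2e3 was at 13.0 CPM (1656 UMIs) in humWT and 5.27 (592 UMIs) in humdG, Nrl at 7.58 and 6.70, Sag at 5.49 and 3.61, and Opn1sw at 17.3 and 12.9. Rom1 was at 12.9 and 11.9 CPM and Gngt1 at 7.25 and 7.34. In such a sum, fewer cells of a type and less RNA per cell cannot be told apart.

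Crx and Otx2 bind DNA that holds the letters TAATCC. These were searched on both strands (GGATTA is the same site read from the other strand) in the RefSeq windows from 250 bases before to 50 after each transcript start (GRCm38.p6), where 8.14% of 27025 genes have a match. In the rod list 11 genes have a window and 5 of them a match (Cnga1, Cngb1, Gngt1, Sag and Samd7). In the cone list 3 of 11 have one (Gnat2, Guca1a and Thrb), in the list of fate regulators 6 of 22, in the neurogenic list 0 of 13, and among the 20 leading genes 1 of 14. The matches of Sag, Samd7, Samd11 and Gngt1, with log2 ratios of -0.96 or below, are shown beside those of Crx (0.11), Thrb (0.44) and Gnat2 (-0.03), with the matching letters in capitals on the strand of the gene.

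Crx, 94 bases before the start, chr7:15880032-15880061, minus strand: gtgggggtggtgGGATTAagcagacggtgc
Crx, 21 bases before, chr7:15879959-15879988, minus: ccaccttccctgGGATTAcccttccagatc
Sag, 87 bases before, chr1:87803581-87803610, plus: taaagaggtttaGGATTAaaaaaaaaaaaa
Samd7, 139 bases before, chr3:30746142-30746171, plus: aaggctaaggaaGGATTAtgctaaaggcta
Samd11, 193 bases before, chr4:156255518-156255547, minus: tctcacgccgatTAATCCtataaagtactt
Samd11, 67 bases before, chr4:156255392-156255421, minus: ggtgccagccctGGATTAgcccggctccag
Gngt1, 44 bases before, chr6:3993952-3993981, plus: tcatattaggggGGATTAtgaagaagcttt
Gnat2, 19 bases before, chr3:108093035-108093064, plus: gggacaatccccGGATTAggaaggagctct
Thrb, 46 bases before, chr14:17660902-17660931, plus: cgtgacgcggcgGGATTAactttgcatggc

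The letters were thus in windows of genes with ratios well below 0 and of genes near or above 0, and they were not in the windows of Nr2e3, Nrl or Opn1sw. The distances are counted from the start used by each RefSeq window. By the GENCODE positions, the matches of Samd11, Gngt1, Gnat2 and Thrb lie inside the gene. For Gnat2, unlike the other genes shown, the bases checked after that start were not found in its GENCODE transcripts. A match is a description of the letters and was not tested for binding.

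Single members were then sorted by the regulators they held. All cells were first brought down to 2000 randomly drawn UMIs, a depth that 6 humWT and 90 humdG members did not reach. A UMI of Nrl or Nr2e3 without Thrb or Rxrg was found in 19.7% of 604 humWT members (16.6 to 23.1) and in 6.72% of 908 humdG members (5.18 to 8.55). Thrb or Rxrg without Nrl or Nr2e3 was found in 27.3% (23.8 to 31.1) and 38.3% (35.2 to 41.6). Both kinds together were found in 4.47% and 4.30%, and neither in 48.5% and 50.7%. The order was the same at 1000 UMIs, where cells with a rod regulator alone made up 13.8% and 5.81% and cells with a cone regulator alone 21.3% and 26.4%, although the intervals for the cone regulators (18.1 to 24.8 and 23.6 to 29.2) overlapped. Without thinning, 16.9% and 9.42% held a rod regulator alone and 32.0% and 42.5% a cone regulator alone. Both kinds together were then found in 23.4% of humWT and 17.1% of humdG members, and neither in 27.7% and 31.0%. The share with both kinds, and so the share with 1 kind alone, thus depended on depth. Globin-rich cells thinned to 2000 UMIs held Nr2e3 in 1.11% and 0.303%, Nrl in 0.664% and 0.909%, Rxrg in 0.664% and 1.52%, and Thrb in 1.55% and 3.94%.

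**Figure D4:**
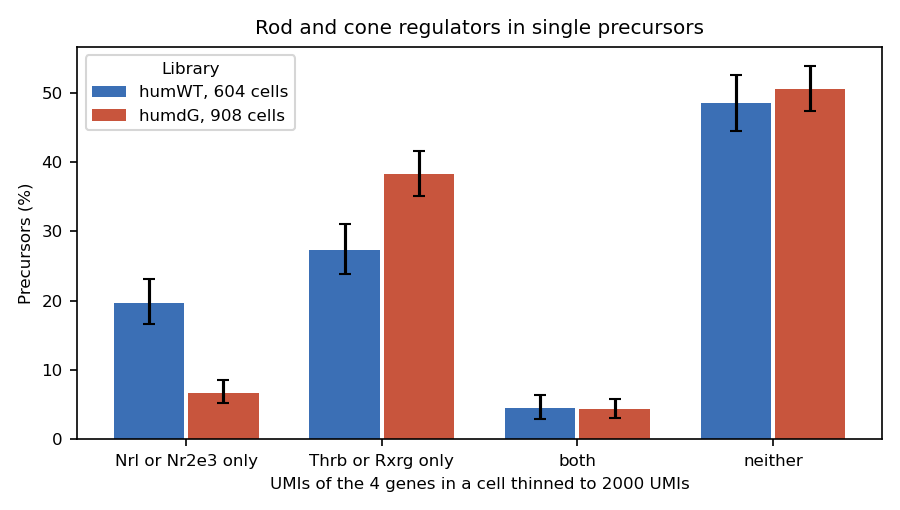
Share of members, in percent, that held a UMI of the rod regulators Nrl or Nr2e3, of the cone regulators Thrb or Rxrg, of both or of neither, after thinning each cell to 2000 UMIs. Bars are 1 library each and error bars are exact 95% binomial intervals; the bar for rod regulators alone is 19.7% in humWT and 6.72% in humdG.

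Genes of the neurogenic state were present in part of the members. Of 18 measured genes in the neurogenic list, 11 were higher and 7 lower in humdG, with a median of 0.20, where 64.5% of all genes were higher. Atoh7 was at 205 and 263 CPM and Neurog2 at 57.7 and 83.9. At 2000 UMIs, Atoh7 was held by 14.9% of humWT members (12.2 to 17.99) and 30.3% of humdG members (27.3 to 33.4). Its share in globin-rich cells differed too, at 3.10% and 12.4%. Hes6, a bHLH factor of cells leaving the cycle, was at 412 and 377 CPM. Of these 18 genes, 1 was past 2-fold, where 2.6% of all genes were at least 2-fold higher. It was Rasgef1b, at 104 and 226 CPM (log2 ratio 1.11), and it was not higher once members of other gates were set aside (-0.09) or in the photoreceptor-led clusters described next (-0.24). In the progenitor list, 7 of 15 genes were higher and 8 lower, with a median of -0.0014. Past 2-fold among them, Fgf15, a secreted growth factor of the neural retina, was at 43.3 and 142 CPM (1.72) and Pax6, the eye-field homeobox gene, at 125 and 261 (1.07). Both were also higher in humdG globin-rich cells, with Fgf15 at 20.3 and 63.3 CPM and Pax6 at 46.8 and 103. The Fgf15 ratio in the members was 0.74 in Y-linked cells and 2.88 in Xist cells. The Pax6 ratio was 0.050 (-0.16 to 0.26) in Y-linked cells and 0.28 (-0.27 to 0.89) in Xist cells. The Notch list was balanced, with 9 of 18 genes on each side and a median of 0.03.

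Of the 16 proliferation genes, 11 were lower and 5 higher in humdG, with a median of -0.23. That median ran from -2.00 to 0.38 over the other settings tried, and was above 0 without members of another gate (0.13) and in the photoreceptor-led clusters (0.063). Genes of mitosis were among the lower ones, with the centromere protein gene Cenpf at 254 and 149 CPM (-0.76) and the ubiquitin-conjugating enzyme gene Ube2c at 206 and 131 (-0.65), while the replication genes Pcna (0.03) and Mcm2 (0.12) were near level. The 11 cell cycle exit genes had a median of 0.01, with 6 higher and 5 lower. Of 19 measured glycolysis genes, a pathway on which photoreceptors lean heavily, 13 were higher with a median of 0.15, near the 64.5% and 0.12 of all measured genes. Hk2, hexokinase 2, was at 22.3 and 45.2 CPM (1.02) and Pfkp, a phosphofructokinase, at 24.6 and 50.03 CPM (1.03), the 2 of 18 with at least 100 UMIs past 2-fold, where 2.6% of all genes were. Of 9 measured bipolar genes, with the rule gene Gnb3 left out, 5 were higher and 4 lower, with a median of 0.00019 (0.02 with Gnb3), and Vsx1, Grm6 and Bhlhe23 were at 0 UMIs in both libraries, which allows up to 0.475 CPM in humWT and 0.329 in humdG.

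The members divided into 8 clusters, described by number and leading genes since every gene used here also formed them. Cluster 4 (122 humWT and 283 humdG cells) was led by Fabp7 and held Nrl, Nr2e3 and Rom1 among its 20 leading genes, beside macrophage genes. Cluster 7 (52 and 122 cells) was led by Pde6h, Gngt1 and Aipl1, with Opn1sw and Gnat2 further down. Cluster 2 (79 and 101 cells, median 3661 UMIs) held Thrb, Cnga3 and Pde6c among its leading genes. Cluster 5 (49 and 73 cells) was led by Mybl1, Atoh7 and Dll3. These 4 clusters, which alone had photoreceptor or neurogenic list genes among their 20 leading genes, held 302 and 579 members. The other 4 were led by genes of other programs: connective tissue genes such as Dlk1 and Dcn in cluster 1 (100 and 21 cells), Anks1b, Pde4d and Ctnna2 in cluster 3 (70 and 117), Cstdc5, Myog and histone genes in cluster 6 (91 and 221 cells, median only 2503 UMIs), and mitotic genes such as Cenpf and Ube2c in cluster 8 (47 and 60 cells, median 17290 UMIs).

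**Figure D5:**
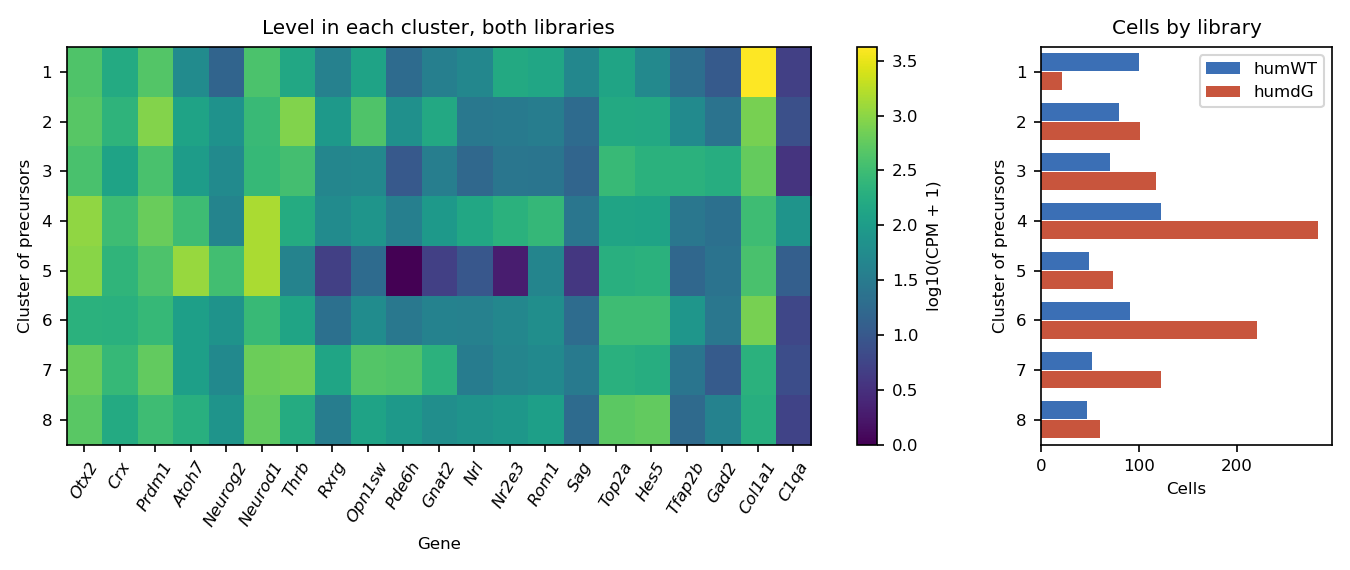
Left, level of 21 genes (columns), as log10 of CPM plus 1, in each of the 8 clusters of members (rows), libraries summed. Right, number of cells of each cluster by library. Nrl, Nr2e3 and Rom1 are highest in cluster 4, Pde6h in cluster 7, Atoh7 in cluster 5 and Col1a1 in cluster 1.

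Nrl and Nr2e3 were both lower in humdG within clusters 1, 3, 4, 6, 7 and 8, and cluster 5 held almost none of either. The Nrl intervals overlapped in clusters 3 and 8. In cluster 4, Nr2e3 was at 470 CPM (431 to 511) in humWT and 85.6 (74.5 to 97.9) in humdG, Nrl at 237 and 111, and Rom1 at 385 and 205. Otx2 was at 1077 and 1063 CPM and Neurod1 at 1523 and 1428. Thrb in the same cluster was at 80.6 and 207 CPM, and in cluster 2 it went the other way, at 1025 (923 to 1135) and 745 (661 to 837). It was lower in clusters 6 and 8 as well, with intervals that overlapped. In cluster 7, Nr2e3 was at 98.4 and 4.92 CPM and Nrl at 64.4 and 9.02, with Opn1sw at 614 (562 to 669) and 347 (315 to 382) and Gnat2 at 237 and 191. Cluster 2 was the exception for the rod regulators, with 2 Nr2e3 UMIs in humWT and 20 in humdG and 5 and 15 Nrl UMIs, while its Opn1sw level was 738 and 131 CPM. Over the 4 photoreceptor-led clusters together, the log2 ratio was -2.16 for Nr2e3, -0.88 for Nrl, -1.50 for Sag and -1.39 for Opn1sw.

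Markers of other cells differed between the libraries too, and their part in the ratios above was not tested. All 12 mesenchyme markers were lower in the humdG members, with 3037 and 1475 CPM in sum, Col1a1 the most abundant (938 and 463 CPM) and none at 0. In globin-rich cells the same list summed to 3198 and 1304 CPM. Amacrine and horizontal markers were higher for 13 of 14 measured genes, with 806 and 1237 CPM in sum and Meis2 the most abundant. The list's median, 0.93 over all members, was -0.21 in cells with Xist and no Y-linked UMI and -0.10 in cells that held Y-linked UMIs but no Xist. Among these, Gad2, an enzyme of GABA synthesis, was at 30.4 and 71.9 CPM and Tfap2b at 34.5 and 86.6. Retinal ganglion cell markers were higher for 13 of 14, with 203 and 298 CPM in sum, Gap43 the most abundant. White blood cell markers were higher for all 7 measured, with 19.0 and 114 CPM in sum. Of the 640 humdG UMIs of C1qa, C1qb and C1qc, complement genes of macrophages, 576 lay in the 2 members with at least 5 of them. Measured RPE markers were lower for 11 of 13, with 614 and 633 CPM in sum, Trpm3 the most abundant and Rpe65 at 0 UMIs. This list includes Rgr, Rlbp1, Slc16a8 and Rdh5, which the rule limits, so their levels were set in part by the choice of members. Of 5 measured red blood cell markers 2 were higher and 3 lower, with 4550 and 4615 CPM in sum and Hbb-bs the most abundant, and all 8 blood vessel markers were higher, with 164 and 183 CPM in sum. All 6 measured lens and surface epithelium markers were lower, with 94.4 and 68.7 CPM in sum, Krt15 the most abundant and Crygs at 0 UMIs.

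The pools also differed in the sex of their cells. Xist, the RNA of the inactive X chromosome, was at 57.7 CPM in the humWT members and 741 in the humdG members. The difference was smaller over all kept cells, at 264 and 571 CPM. In the kept cells outside the members Xist was at 274 and 556 CPM. Members with a UMI of a Y-linked gene and none of Xist numbered 386 and 261, and those with Xist and no Y-linked UMI 33 and 348. A further 83 and 227 members held both kinds, and 108 and 162 held neither. In globin-rich cells, 9.91% (7.32 to 13.0) and 21.4% (17.3 to 26.0) held an Xist UMI. The split is thus by UMIs held and does not fix the sex of each cell. Within the Y-linked cells, Nr2e3 was at 172 CPM in humWT and 55.3 in humdG (log2 ratio -1.64, -1.93 to -1.35), Nrl at 95.8 and 65.1 (-0.56, -0.85 to -0.27), Sag at 37.9 and 10.3, and Opn1sw at 240 and 127 (-0.92, -1.12 to -0.73). In these cells Thrb was at 223 and 313 CPM (0.49), and Pde6h at 109 and 108. Within the Xist cells, Nr2e3 was at 90.2 and 34.4 CPM (-1.39) and Opn1sw at 320 and 80.5 (-1.99). The intervals of Nrl (-0.50, -1.26 to 0.34) and Sag (-1.40, -2.60 to 0.03) included 0 there. With only 33 humWT cells, Gngt1 there had 5 UMIs against 159 (1.40), Pde6g 7 against 145 (0.78) and Pde6h 7 against 202 (1.26). These 3 ratios were above rather than below 0, though the Pde6g interval (-0.30 to 2.12) included 0. Gnat2 had 4 UMIs against 262 (2.44). Pde6c was at -0.47 and Prph2 at 0.04 in these cells, and Cnga3 was at -0.47 in the Y-linked cells, each against its direction over all members.

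Over all genes with at least 100 UMIs and a level, in the library where they were higher, at least 2 times that of its red blood gate (9642 genes), the 10 with the lowest ratio included Nr2e3, Samd11, Sag and Rcvrn. The others were Myog, Slc26a7, Cstdc5, Pi16, Col5a3 and Ankfn1. A gene could pass this filter through 1 library alone, so the ranking is a description from which no conclusion is drawn. In humdG, Myog, Slc26a7 and Samd11 were at 2.74, 4.72 and 12.6 CPM, against 13.9, 13.9 and 6.95 in the red blood gate. Of the 129 Myog UMIs in humWT, 84.5% lay in 10 cells, as did 88.5% of the 355 Cstdc5 UMIs, whereas the top 10 cells held 26.3% of the Nr2e3 UMIs. For Samd11, Sag and Rcvrn in humWT, the top 10 cells held 19.1%, 34.6% and 58.3%. The 10 with the highest ratio were Tsix, Xist, C1qb, C1qc, Gm38505, Ctss, Megf11, C1qa, Car10 and Gm26688. Among them were Xist with Tsix, which overlaps it on the opposite strand, and the macrophage genes held by few cells. Car10 was at 4.28 and 28.6 CPM (log2 ratio 2.74, 2.17 to 3.37), and at 4.97 and 21.6 in globin-rich cells. Myrf itself was scarce in the members, with 36 UMIs (5.70 CPM) in humWT and 35 (3.84 CPM) in humdG, a log2 ratio of -0.57 (-1.28 to 0.14). It was held by 5.08% of humWT members (3.48 to 7.14) and 3.31% of humdG members (2.29 to 4.61). In globin-rich cells the shares were 3.96% (2.37 to 6.19) and 1.97% (0.80 to 4.02), so Myrf was near that background. The Myrf counts do not tell the alleles apart, so the level does not check the genotype.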

How the data were processed

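The authors deposited raw UMI counts per gene and barcode for each of 2 libraries, made with Cell Ranger 7.1.0 on mm10 per the labels, which also list Seurat 4.1.1. Whether intron reads were counted is not given in the sources used here. Counts were read as deposited (32285 genes; 38 symbols shared by several genes were left out). Cells with over 500 genes and under 15% mitochondrial UMIs were kept. The members, gene lists and gates were chosen with earlier results of these data known.

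UMIs were summed over the members and given as CPM. With 1 library per genotype no test was run; ratios used genes with at least 20 UMIs for lists (0.5 counts added) and at least 100 for 2-fold counts. Named genes were the rule genes and Otx2, list genes, the 10 highest and 10 lowest ratios, the 20 leading genes, Myrf and the sex genes. Globin-rich cells were added after seeing the data, since the red blood gate held 38 and 24 cells. Members were clustered with scanpy 1.11.5 (1000 variable genes, 20 components, 15 neighbours, Leiden resolution 0.5). Scrublet called 1 and 0 cells and so had not worked; doublets stayed in, and the 5% highest scores were left out as an alternative. Cells were thinned without replacement. The ratio code was tested on simulated data. Gene positions came from GENCODE M21. Some genes are not reported here. Symbols Eys, Ahsp and Aldoa of the lists matched no single gene.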

Additional observations from a re-analysis of the deposited data

How the results depend on the processing

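The rod list stayed lower in humdG under all 19 alternatives run, its median lying between -1.27 and -0.54 (log2). The cone list ran from -0.16 to 0.22 except in cells with Xist and no Y-linked UMI, where it was 0.70. Without Gngt2 and Gnb3, which the rule used, it ran from -0.22 to 0.18 and was 0.57 in Xist cells. Nr2e3 ran from -2.38 to -1.39, Nrl from -1.20 to -0.27, Sag from -2.05 to -1.40 and Opn1sw from -1.99 to -0.92. The sex split, the depth limit of 3000 UMIs, the photoreceptor-led clusters the lists without rule genes and the collagen-scaled subtraction were chosen after seeing the data.

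The share of members, 3.58% in humWT and 5.22% in humdG, was 6.60% and 12.44% with at least 2 of the 5 markers, 2.11% and 3.22% with at least 4, 2.84% and 4.35% with markers at 0.1% of UMIs, 0.831% and 1.40% after thinning, 2.71% and 3.10% without members of another gate, 1.77% and 3.03% for photoreceptor-led clusters, 1.40% and 6.20% of Xist cells, 6.35% and 7.04% of Y-linked cells, and 5.09% and 9.28% of cells with at least 3000 UMIs.

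Genes at least 2-fold higher in humdG numbered 294 of 11290. They numbered 448 with at least 4 markers, 105 with markers at 0.1% of UMIs, 803 without the RPE exclusion (which adds 15 and 20 cells), 42 after thinning (where 141 and 263 cells remain), 86 without members of another gate, 63 in photoreceptor-led clusters, 37 in Y-linked cells, 178 with the mean of each cell's CPM, 772 after the collagen-scaled subtraction (which removed 48.2% and 53.3% of UMIs) and 186 with at least 200 UMIs. Genes at least 2-fold lower numbered 97, and 265 without members of another gate, 176 in Xist cells, 161 in Y-linked cells, 316 with the mean of each cell's CPM, 268 after the collagen-scaled subtraction, 149 with at least 50 UMIs and 51 with at least 200. Lower genes outnumbered higher ones with markers at 0.1% of UMIs, after thinning and without members of another gate. They also did so in photoreceptor-led clusters, in Y-linked cells and with the mean of each cell's CPM. Where no construction is named, the cause was not tested.

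Values whose 95% interval lay on 1 side of 0 turned direction in these cases; apart from the subtraction, the cause was not tested. In Xist cells the median of the phototransduction list was 0.69, of the amacrine and horizontal list -0.21 and of all genes -0.020, with Gngt1 at 1.40, Pde6g at 0.78, Pde6h at 1.26, Pde6c at -0.47, Prph2 at 0.044 and Tfap2b at -0.034. In Y-linked cells the amacrine and horizontal list was at -0.10, all genes at -0.041 and Gad2 at -0.10. After thinning, all genes were at -0.013 and C1qa at -0.14. The mesenchyme list was at 0.31 after the collagen-scaled subtraction, which sets its 3 collagen genes together to 0 by construction. Cngb3 was at -0.031 with at least 2 markers and -0.082 with the mean of each cell's CPM. Rasgef1b was at -0.087 without members of another gate and -0.24 in photoreceptor-led clusters. Values near 0 also changed sign: the medians of the cone, fate regulator, outer segment and synapse lists (synapse down to -0.11), Gnat2, Cnga3 and Otx2. Samd7 (-1.42) ran from -1.57 to -0.65 and Fgf15 (1.72) from 0.74 to 2.88. Pax6 (1.07) ran from 0.050 in Y-linked cells to 1.51 without the RPE exclusion, and Rcvrn (-1.53) from -1.89 to -0.0064. The proliferation median (-0.23) was above 0 in 5 alternatives, up to 0.38 with the mean of each cell's CPM, and Myrf (-0.57, on 36 and 35 UMIs) reached 0.31 with at least 4 markers. Subtracting the red blood profile removed 0.778% and 0.768% of UMIs and turned no direction of the results recomputed with it. Leaving out replicates was not possible with 1 library per genotype. No paired analysis was possible because the groups share only 1 replicate number and no test was run. Genes with few UMIs, Gnat1 and Pde6b among them, are limited by depth.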
